A study of Mus musculus with 7 samples.

Results

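Adarb2 is 1 of the 297 genes counted by Xenium in brain hemisections of wild-type mice. Xenium images single transcripts of a fixed panel in place and gives each to the cell outline it falls in. The hemispheres were snap frozen and cut at 10 µm around the anterior thalamic nuclei into 7 sections, with 3 at a posterior position (bregma -0.94 mm), 2 at an intermediate position (bregma -0.7 to -0.82 mm) and 2 at an anterior position (bregma -0.58 mm). Replicates 1 and 2 lay on one slide, and posterior replicates 3 and 4 on another. All sections were WT and untreated as far as the labels say, and the labels give no age and no animal for a section, so a p-value here weighs only how sections differ, and that spread may be technical. Adarb2 was chosen for its level in 6 classes of cells, which are called here by the transcript in the rule and not by a cell type. The Vip, Lamp5, Sst and Pvalb classes had Gad1 plus Gad2 at 5 or more and the named transcript at 5 or more. The VGLUT2 class had Slc17a6, the gene of the vesicular transporter VGLUT2, at 8 or more with Gad1 plus Gad2 at 2 or below. The VGLUT1 class had Slc17a7, the VGLUT1 gene, at 5 or more. They held 3331 cells (Vip), 25550 (Lamp5), 3596 (Sst), 35808 (Pvalb), 18086 (VGLUT2) and 144175 (VGLUT1) of 384076 in all, and a cell entered every class whose rule it met.

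ADARB2, also called ADAR3, is a brain-enriched member of the adenosine deaminases acting on RNA. It carries double-stranded RNA-binding domains and a deaminase-like domain, but no editing activity is known for it. In mouse cortex its transcript is a marker of interneurons born in the caudal ganglionic eminence, the source of Vip and Lamp5 interneurons, while Sst and Pvalb interneurons come from the medial eminence. Gad1 and Gad2 encode the GABA-synthesising enzymes, and thalamic relay neurons use VGLUT2.

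The mouse Adarb2 gene lies on the plus strand at chr13:8202526-8768762 of GRCm38.p6 and spans 566237 bp. Shown are 300 bases (RefSeq, GRCm38.p6, chr13:8202616-8202915, plus strand), with 250 before and 50 after the transcript start used. This window lies inside the span above, so that start is not the first base of the gene. It is the only sequence of the gene used here, since no probe sequence was. Capitals mark matches to CCAAT, here as its reverse complement ATTGG, and to TAATTA.
Adarb2 promoter: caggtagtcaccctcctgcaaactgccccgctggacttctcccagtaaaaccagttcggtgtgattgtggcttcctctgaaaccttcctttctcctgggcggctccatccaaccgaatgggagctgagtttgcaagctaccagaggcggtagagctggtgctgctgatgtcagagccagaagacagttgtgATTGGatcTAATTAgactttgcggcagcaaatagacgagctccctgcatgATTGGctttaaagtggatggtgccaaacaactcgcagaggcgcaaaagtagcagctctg
Both strands were searched, and the matches do not overlap. CCAAT occurred 2 times and TAATTA 1 time. Of 32851 RefSeq promoter windows of the same length, 37.4% held CCAAT and 5.29% held TAATTA.

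Sections held 50169 to 60720 cells and 17438577 to 23432215 transcripts, and the median cell held 339. Adarb2 gave 202902 transcripts, 0.138% of all, and ranked 179 of 297 genes. It was found in 21.6% of cells, with at most 50 in 1 cell. Control probes, which match no transcript, gave 0.656 counts per cell over all probes, or at most 0.109 per probe. In 8 cases a barcode stem appeared in more than 1 section, and in 0 of these did the cells have equal counts. Of the 4 transcripts that name the GABA classes, each was the highest in its own class except Sst. Sst averaged 8.76 ± 0.360 transcripts per cell in the Sst class, where Pvalb averaged 16.9 ± 4.13 (SD, n = 7 sections, as throughout). Slc17a7, a marker of excitatory neurons, averaged 7.06 ± 1.29 to 13.9 ± 0.853 per cell in the 4 GABA classes. A cell outline can take in transcripts from adjoining cells, and how far that sets these values was not tested.

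Adarb2 was highest in the Vip class. The rule chose the gene for these levels, so they are a description with no test. Vip cells held 5.65, 4.60 and 6.45 Adarb2 transcripts per cell in posterior replicates 1, 3 and 4, 5.35 and 5.80 in intermediate replicates 1 and 2, and 4.47 and 5.17 in anterior replicates 1 and 2. All 7 sections of the Vip class lay above every section of the other 5 classes. Their mean was 5.36 ± 0.691, which was 4.89-fold the mean of the Lamp5 class, 6.09-fold that of the Pvalb class and 17.0-fold that of the Sst class. Adarb2 was found in 82.9% of Vip cells as a mean over sections, and shares of classes with Adarb2 below are section means too. Of all Vip cells pooled, 55.6% held 3 or more transcripts.

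The Lamp5 class came next among the GABA classes in transcripts per cell. Lamp5 cells held 1.25, 1.07 and 1.20 Adarb2 transcripts per cell in posterior replicates 1, 3 and 4, 1.07 and 1.01 in intermediate replicates 1 and 2, and 1.02 and 1.04 in anterior replicates 1 and 2, with a mean of 1.10 ± 0.0939. Pvalb cells held 0.790, 0.944 and 0.765 in the posterior sections, 0.874 and 0.939 in the intermediate ones and 0.938 and 0.905 in the anterior ones, with a mean of 0.879 ± 0.0742. Every Lamp5 section was above every Pvalb section per cell. Lamp5 cells were deeper, with a median of 634 transcripts of all genes against 461. Per 1000 transcripts the sections overlapped, at 1.47 to 1.83 (Lamp5) and 1.47 to 1.96 (Pvalb), and the Pvalb mean was the higher. Sst cells were lowest, at 0.323, 0.324 and 0.332 in the posterior sections, 0.281 and 0.360 in the intermediate ones and 0.241 and 0.345 in the anterior ones, with a mean of 0.315 ± 0.0408. The share of cells with Adarb2 was 33.3% in the Lamp5 class, 24.2% in the Pvalb class and 17.2% in the Sst class.

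The VGLUT2 class differed from the others in its spread. Its cells held 1.56, 0.203 and 2.53 Adarb2 transcripts per cell in posterior replicates 1, 3 and 4, 0.664 and 0.964 in intermediate replicates 1 and 2, and 0.343 and 0.661 in anterior replicates 1 and 2. The highest and the lowest section were thus both posterior and on the same slide. The mean was 0.989 ± 0.811 with a median of 0.664, so its position between the Lamp5 and Pvalb classes was within its own spread. The share of VGLUT2 cells with 3 or more Adarb2 transcripts followed the same order, at 18.7%, 0.914% and 27.7% in posterior replicates 1, 3 and 4, 7.90% and 12.3% in the intermediate sections, and 2.80% and 7.43% in the anterior ones. VGLUT1 cells held 0.581, 0.469 and 0.717 transcripts per cell in the posterior sections, 0.403 and 0.501 in the intermediate ones and 0.356 and 0.426 in the anterior ones, with a mean of 0.493 ± 0.122. The lowest VGLUT1 section was just under the highest Sst section, at 0.356 against 0.360.

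**Figure D1:**
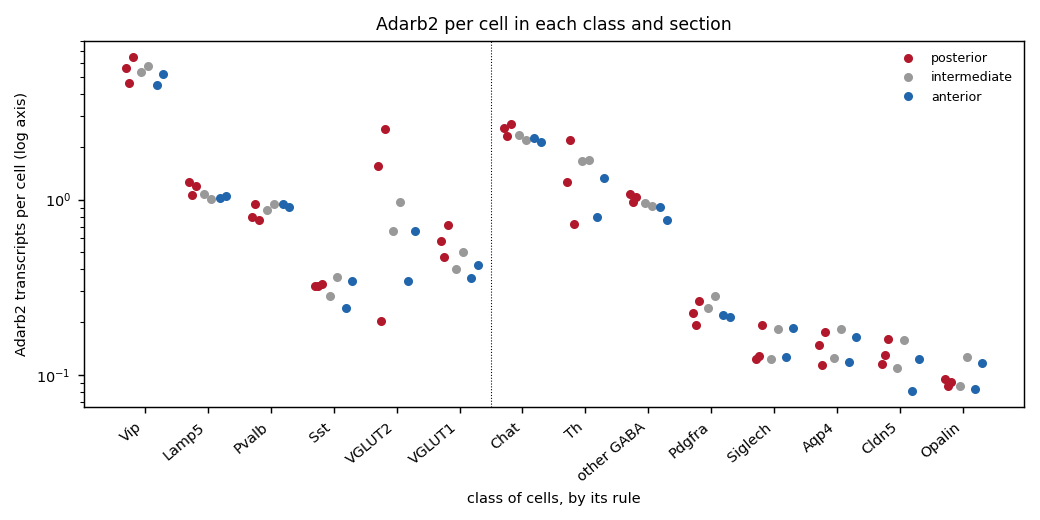
Adarb2 transcripts per cell (log axis) in the 6 classes of the rule and in 8 other classes, with 1 point per section coloured by position. Vip sections lie between 4.47 and 6.45, above all others in the rule, and VGLUT2 sections are the most spread, between 0.203 and 2.53.

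Cells that should lack Adarb2 set the background. Cells with low Gad1 plus Gad2, Slc17a6 and Slc17a7 were grouped by a glial or vascular transcript, and they averaged 0.234 ± 0.0309 Adarb2 transcripts per cell in the Pdgfra group (oligodendrocyte precursors), 0.152 ± 0.0328 with Siglech (microglia), 0.147 ± 0.0283 with Aqp4 (astrocytes), 0.126 ± 0.0279 with Cldn5 (endothelium) and 0.0981 ± 0.0170 with Opalin (oligodendrocytes). The Vip class was 54.6-fold above the Opalin group. These groups hold fewer transcripts per cell, so Adarb2 was also set per 1000 transcripts. On that scale the Vip class had 9.92 ± 0.853, the VGLUT2 class 1.76 ± 1.34, the Pvalb class 1.74 ± 0.171, the Lamp5 class 1.64 ± 0.122, the VGLUT1 class 0.941 ± 0.182 and the Sst class 0.510 ± 0.0574. The glial and vascular groups ran from 0.476 ± 0.0936 (Cldn5) to 0.877 ± 0.0975 (Pdgfra). The Sst class therefore lay at the background on this scale, and so did the VGLUT2 class of posterior replicate 3, at 0.388 per 1000. GABA cells with none of the 4 markers at 5 or more had 2.28 ± 0.252 per 1000. That lay below the mean of the Vip class and above the means of the other classes of the rule. Cells with 5 or more Chat transcripts had 4.64 ± 0.572 per 1000. With each cell thinned to 200 transcripts, Adarb2 was found in 67.2% of Vip cells, 20.1% of VGLUT2, 18.2% of Lamp5, 16.7% of Pvalb, 10.7% of VGLUT1 and 7.63% of Sst cells, and in 9.41% (Aqp4) to 13.0% (Pdgfra) of cells of the glial and vascular groups. Shallower cells drop out of these shares (253 Vip, 367 VGLUT2, 180 Lamp5, 2833 Pvalb, 9069 VGLUT1 and 45 Sst cells, and 15895 of the 21671 Opalin cells). The shares in the VGLUT1 and Sst classes are thus no higher than the background.

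The classes overlap, and part of each mean comes from cells that met several rules. Of Vip cells, 36.8% were also in the Lamp5 class and 75.1% in the VGLUT1 class. Lamp5 cells with Vip also at 5 or more (1227 cells) held 4.69 ± 0.656 Adarb2 transcripts per cell, and Lamp5 cells with no Vip transcript held 0.827 ± 0.0697. VGLUT1 cells with Gad1 plus Gad2 at 10 or more held 1.87 ± 0.157, and those with 2 or below held 0.254 ± 0.160. Among cells that met 1 rule only, the means were 4.61 ± 1.16 (Vip), 1.29 ± 0.181 (Pvalb), 0.817 ± 0.103 (Lamp5), 0.772 ± 0.401 (VGLUT2), 0.595 ± 0.130 (Sst) and 0.157 ± 0.0204 (VGLUT1). The Pvalb class then stood above the Lamp5 class, and the VGLUT1 class lay within the range of the glial and vascular groups. At the thresholds themselves, cells with exactly 5 Vip transcripts held 2.89 Adarb2 transcripts per cell and cells with 4 held 2.50, and VGLUT2 cells with exactly 8 Slc17a6 transcripts held 0.446 against 0.381 in cells with 7. The other 4 classes were as close across their thresholds, at 0.817 inside and 0.751 outside (Lamp5), 0.438 and 0.487 (Sst), 0.785 and 0.802 (Pvalb), and 0.510 and 0.519 (VGLUT1).

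Whether Adarb2 changes along the anterior to posterior axis was tested in each class on counts summed per section, with edgeR's quasi-likelihood test over all genes and Benjamini-Hochberg adjustment (n = 3 posterior and 2 anterior sections, 4 residual degrees of freedom). Adarb2 did not pass in any class without a replicate block, and passed in the VGLUT1 class with one. In the VGLUT2 class it averaged 1.43 transcripts per cell in posterior and 0.502 in anterior sections, with a log2 difference of 1.33 ± 0.89 (SE, edgeR adjusted p = 0.993). The posterior sections spanned 0.203 to 2.53 and enclosed both anterior sections. In the VGLUT1 class Adarb2 averaged 0.589 in posterior and 0.391 in anterior sections without overlap, with a log2 difference of 0.42 ± 0.14 (SE, edgeR adjusted p = 0.250). With the replicate number as a block, the VGLUT1 difference was 0.46 ± 0.08 and passed (SE, edgeR adjusted p = 0.0458), and that of the VGLUT2 class was 1.89 ± 0.15 and did not (0.0658). The labels do not say what a replicate number marks, and same-numbered sections correlated by 0.384 to 0.859 in the VGLUT1 class. Posterior replicates 3 and 4 have no same-numbered section elsewhere, so posterior replicate 1 alone stands for its position in these blocked values, which rest on 1 residual degree of freedom. Among VGLUT1 cells that met no other rule and had Gad1 plus Gad2 and Slc17a6 at 2 or below, the difference without the block was 0.03. The GABA classes had log2 differences of 0.07 ± 0.10 (Lamp5), -0.01 ± 0.12 (Vip), -0.02 ± 0.20 (Sst) and -0.22 ± 0.11 (Pvalb), the last with an edgeR adjusted p of 0.591.

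The fits called no gene at an adjusted p of 0.05, which is 0% of the genes tested in the Vip class, 0% in the Lamp5 class, 0% in the Sst class, 0% in the Pvalb class, 0% in the VGLUT2 class and 0% in the VGLUT1 class. With edgeR, 6, 27, 41, 24, 4 and 46 genes had an unadjusted p under 0.05 in the Vip, Lamp5, Sst, Pvalb, VGLUT2 and VGLUT1 classes, and DESeq2 called 1, 3, 7, 3, 0 and 21. The VGLUT2 value rested on single sections, since it was 1.82 without posterior replicate 3 (edgeR adjusted p = 0.218) and 0.64 without posterior replicate 4. On slide 1 alone it was 1.44 in the VGLUT2 class and 0.44 in the VGLUT1 class (edgeR adjusted p = 0.998 and 0.303), while slide 2 held posterior sections only. The position difference was not shown to differ between the VGLUT2 and VGLUT1 classes, with an interaction of 0.49 ± 0.87 on the log2 scale (SE, edgeR adjusted p = 0.997). That fit called 0% of 297 genes, with 8 at an unadjusted p under 0.05. The classes share 4962 cells, 27.4% of the VGLUT2 class, and the interaction was 0.23 ± 0.85 with these left out of both. It was 1.35 without posterior replicate 3 and -0.15 without posterior replicate 4.

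The posterior sections also differed in the kind of VGLUT2 cells they held. Posterior replicate 3 had 1313 VGLUT2 cells, against 3036 and 2964 in posterior replicates 1 and 4. Prox1, a homeobox transcription factor of many thalamic neurons, reached 3 transcripts in 42.9% of VGLUT2 cells of posterior replicate 3, against 67.4% and 71.9% in the other 2. The part of this in the low Adarb2 of that section was not tested.

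Within VGLUT2 cells, Adarb2 was compared between cells with 3 or more transcripts of another gene and cells with none, for 11 genes that vary among thalamic neurons, with the section as a block (n = 7 sections). The class was chosen by transcripts and not by position, so its cells are not shown to be thalamic, and VGLUT2 cells of other regions may be among them. Adarb2 rose with 5 of the 11, namely Foxp2, Prox1, Calb1, Car4 and Necab1, fell with C1ql2, and did not pass with the other 5. These splits separate cells on many genes at once, and each result is given with the share of all tested genes that the same fit called. A call on Adarb2 in a split that calls most genes sets it little apart from the panel.

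Foxp2 is a forkhead transcription factor found in part of the thalamus. Foxp2-positive VGLUT2 cells held 4.36, 0.163 and 5.17 Adarb2 transcripts per cell in posterior replicates 1, 3 and 4, 1.12 and 1.57 in the intermediate sections, and 0.507 and 0.971 in the anterior ones. Foxp2-negative cells held 0.779, 0.204 and 0.863 in the posterior sections, 0.479 and 0.629 in the intermediate ones, and 0.293 and 0.442 in the anterior ones. Foxp2-positive cells were higher in 6 of 7 sections, all but posterior replicate 3. Over the sections they averaged 1.98 ± 1.97, against 0.527 ± 0.244 in Foxp2-negative cells, with a log2 difference of 1.38 ± 0.32 (SE, edgeR adjusted p = 0.00642). The fit called 50.7% of genes.

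Prox1-positive VGLUT2 cells averaged 1.22 ± 1.12 Adarb2 transcripts per cell, against 0.397 ± 0.180 in Prox1-negative cells (log2 difference 1.33 ± 0.43, SE, edgeR adjusted p = 0.0154, 82.3% of genes called). They were higher in 5 of 7 sections, and posterior replicate 3 and anterior replicate 2 went the other way, at 0.156 in positive against 0.244 in negative cells and 0.588 against 0.649. Calb1 encodes the calcium-binding protein calbindin. Calb1-positive cells averaged 1.40 ± 1.25, against 0.556 ± 0.322 in Calb1-negative cells (0.92 ± 0.22, adjusted p = 0.00807 with edgeR, 45.6% of genes called), and were higher in 6 of 7 sections. Car4 encodes a carbonic anhydrase, and Car4-positive cells averaged 1.49 ± 1.55, against 0.585 ± 0.304 (0.81 ± 0.30, 0.0312 and 70.1% on the same measures). They were higher in 5 of 7 sections. Anterior replicate 2 (0.554 in positive against 0.638 in negative cells) and posterior replicate 3 (0.187 against 0.216) went the other way. Necab1 encodes a neuronal calcium-binding protein, and Necab1-positive cells averaged 1.25 ± 0.943, against 0.794 ± 0.776 (0.60 ± 0.19, 0.0276 and 39.8%).

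C1ql2, a secreted C1q-like protein and a known marker of the anterodorsal nucleus, went the other way. C1ql2-positive VGLUT2 cells held 0.105, 0.243 and 0.131 Adarb2 transcripts per cell in posterior replicates 1, 3 and 4, against 1.70, 0.199 and 2.85 in C1ql2-negative cells. They were lower in 6 of 7 sections, and averaged 0.253 ± 0.157, against 1.07 ± 0.932 in C1ql2-negative cells (log2 difference -1.79 ± 0.63, SE, edgeR adjusted p = 0.0376, 53.2% of genes called). Over the 7 sections Adarb2 per cell ranged from 0.105 to 0.498 in C1ql2-positive cells and from 0.199 to 2.85 in C1ql2-negative cells.

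The other 5 splits did not pass. The log2 differences were -0.66 ± 0.32 for Tacr1 (62.6% of genes called), -0.47 ± 0.28 for the serotonin receptor gene Htr2c (63.3%), -0.13 ± 0.19 for Calb2, which encodes calretinin (59.2%), 0.14 ± 0.35 for Slc17a7 (60.5%) and 0.16 ± 0.29 for Pvalb (36.4%). Tacr1 passed without posterior replicate 3 (edgeR adjusted p = 0.00923) or at a threshold of 5 in place of 3 (0.0287), and Calb2 passed among cells that met no other rule (-0.59, 0.019). The calls on Foxp2, Prox1 and Calb1 held when any 1 section was left out, but that on Prox1 was lost when cells were thinned to 200 transcripts (0.71, edgeR adjusted p = 0.086) and that on Calb1 without the section block (0.0729). The call on C1ql2 was lost without any of intermediate replicate 1, intermediate replicate 2, posterior replicate 1 and posterior replicate 4 (edgeR adjusted p 0.0561 to 0.127), that on Car4 without anterior replicate 1, intermediate replicate 1, posterior replicate 1 or posterior replicate 4 (0.061 to 0.0859), and that on Necab1 without intermediate replicate 1, intermediate replicate 2, anterior replicate 2 or posterior replicate 1 (0.0718 to 0.0771). Among VGLUT2 cells with Slc17a7 at 2 or below, which met no other rule, the differences by Foxp2, Prox1, Calb1 and C1ql2 were 0.70, 0.46, 0.20 and -0.32, and of these 4 Foxp2 alone passed (edgeR adjusted p = 0.0167).

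**Figure D2:**
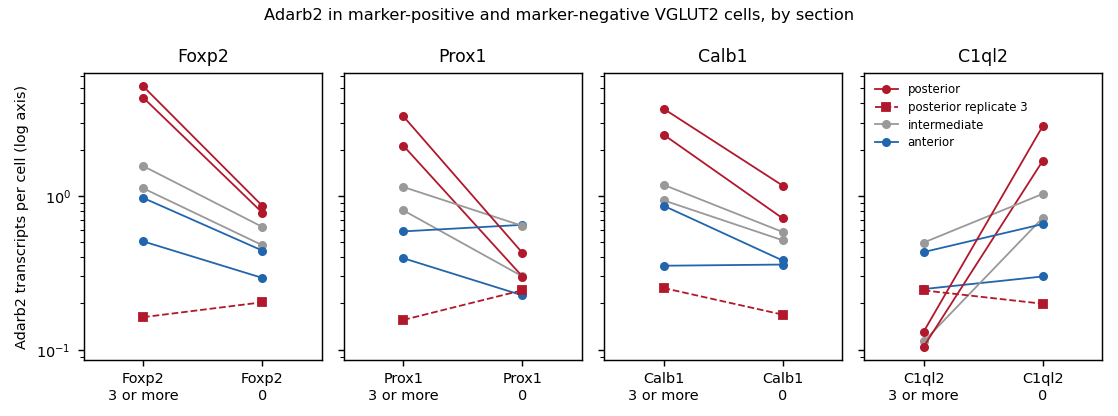
Adarb2 transcripts per cell (log axis) in marker-positive (3 or more, left in each panel) and marker-negative (0, right) VGLUT2 cells for Foxp2, Prox1, Calb1 and C1ql2, with 1 line per section and posterior replicate 3 dashed. Lines fall to the right for Foxp2 and Calb1 in 6 of 7 sections and climb for C1ql2 in 6 of 7, and posterior replicate 3 stays low on both sides.

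VGLUT2 cells with 3 or more Adarb2 transcripts (2312 cells, median 683.5 transcripts of all genes) were then compared with VGLUT2 cells that had none (11346 cells, median 474), leaving Adarb2 out of the sums. Of 294 genes, 74 (25.2%) passed edgeR's test, 25 higher and 49 lower in Adarb2-high cells. The share of higher genes was 33.8%, and 11.0% with library-size scaling in place of TMM. Among genes that moved one way in all 7 sections, Pdgfra, the receptor that marks oligodendrocyte precursors, was higher at 1.46 ± 0.863 transcripts per cell in Adarb2-high cells, against 0.506 ± 0.0571 in Adarb2-zero cells. Igf1, an insulin-like growth factor, had 0.486 ± 0.170 against 0.195 ± 0.0519, and Anks1b, a synaptic adaptor protein, 28.2 ± 3.53 against 15.9 ± 0.816. Cdk5r1, the activator of the kinase Cdk5, and the transcription factor gene Sox11 completed the genes higher in every section. Their log2 differences were 1.22 ± 0.25 (Pdgfra), 1.18 ± 0.23 (Igf1), 0.71 ± 0.13 (Anks1b), 0.64 ± 0.15 (Cdk5r1) and 0.61 ± 0.15 (Sox11), SE, with edgeR adjusted p from 0.00673 (Anks1b) to 0.0188 (Sox11). None of the 5 passed when each cell was thinned to 200 transcripts. Leaving out intermediate replicate 1, posterior replicate 1 or posterior replicate 4 also ended the calls on Cdk5r1 (edgeR adjusted p 0.0585, 0.0553 and 0.0531) and Sox11 (0.0655, 0.0647 and 0.0531), and library-size scaling ended that on Sox11 (log2 difference 0.29).

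Of the genes lower in Adarb2-high VGLUT2 cells in all 7 sections, the 6 largest differences were in Lamp5, Neurod6, Fezf2, Igfbp6, C1ql2 and Rspo1. Lamp5, a membrane protein gene of upper-layer cortex, had 0.354 ± 0.474 transcripts per cell in Adarb2-high cells, against 2.70 ± 0.987 in Adarb2-zero cells (log2 difference -3.64 ± 0.44, SE, edgeR adjusted p = 0.00145). Neurod6 and Fezf2, transcription factors of cortical excitatory neurons, had 0.564 ± 0.931 against 2.19 ± 0.795 (-2.98 ± 0.51) and 0.0829 ± 0.0494 against 0.472 ± 0.113 (-2.84 ± 0.38). Igfbp6, an insulin-like growth factor binding protein, fell by 2.82 on the log2 scale, C1ql2 by 2.44 and the R-spondin gene Rspo1, a Wnt signal enhancer, by 2.39. The call on C1ql2 was lost without intermediate replicate 1 (edgeR adjusted p = 0.0712) or posterior replicate 1 (0.0614). Among VGLUT2 cells that met no other rule the calls on Igfbp6 (-0.63, edgeR adjusted p = 0.222), C1ql2 (-0.34, 0.394) and Rspo1 (-1.09, 0.0721) were lost, and those on Lamp5 (-1.21), Neurod6 (-1.06) and Fezf2 (-1.14) held at smaller differences. The call on Rspo1 was also lost in cells thinned to 200 transcripts (0.118). Beside 49 of all 294 genes lower, of 8 cortical excitatory markers 3 were lower, of 2 oligodendrocyte precursor markers both were higher, with a summed 0.893 to 4.67 transcripts per cell in Adarb2-high against 0.541 to 0.753 in Adarb2-zero cells, and of 8 endothelial markers 1 was lower. Of 5 striatal projection markers 2 were lower. The part of these cells in the differences was not tested. Gad1 and Gad2 did not pass, but the class rule holds their sum at 2 or below, so this comparison cannot test them.

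Among the genes higher in Adarb2-high VGLUT2 cells, larger differences stood in genes that 1 section contradicted. Ramp3, a receptor-activity-modifying protein, is a member of the thalamic list. It had 6.97, 0.417 and 7.17 transcripts per cell in Adarb2-high cells of posterior replicates 1, 3 and 4, 3.80 and 6.27 in the intermediate sections and 1.60 and 2.34 in the anterior ones. In Adarb2-zero cells it had 0.621, 0.680 and 0.716 in the posterior sections, 0.544 and 0.988 in the intermediate ones and 0.449 and 0.925 in the anterior ones. Ramp3 was thus higher in 6 of 7 sections (log2 difference 2.19 ± 0.49, SE, edgeR adjusted p = 0.0124). The exception was posterior replicate 3, where 12 cells were Adarb2-high. Rab37, Opn3 and Pcp4 share this pattern per 1000 transcripts and were chosen after their values were seen. Rab37, a small GTPase gene, averaged 3.87 ± 2.96 per cell in Adarb2-high and 0.862 ± 0.507 in Adarb2-zero cells (log2 difference 1.82 ± 0.31, SE), the opsin gene Opn3 1.88 ± 1.03 against 0.483 ± 0.108 (1.71 ± 0.34) and the calmodulin-binding protein gene Pcp4 22.0 ± 11.5 against 6.48 ± 0.850 (1.46 ± 0.36). The count of 74 genes was itself uneven over sections. It was 140 without posterior replicate 3, and 29, 40, 31 and 34 without intermediate replicate 1, intermediate replicate 2, posterior replicate 1 and posterior replicate 4.

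**Figure D3:**
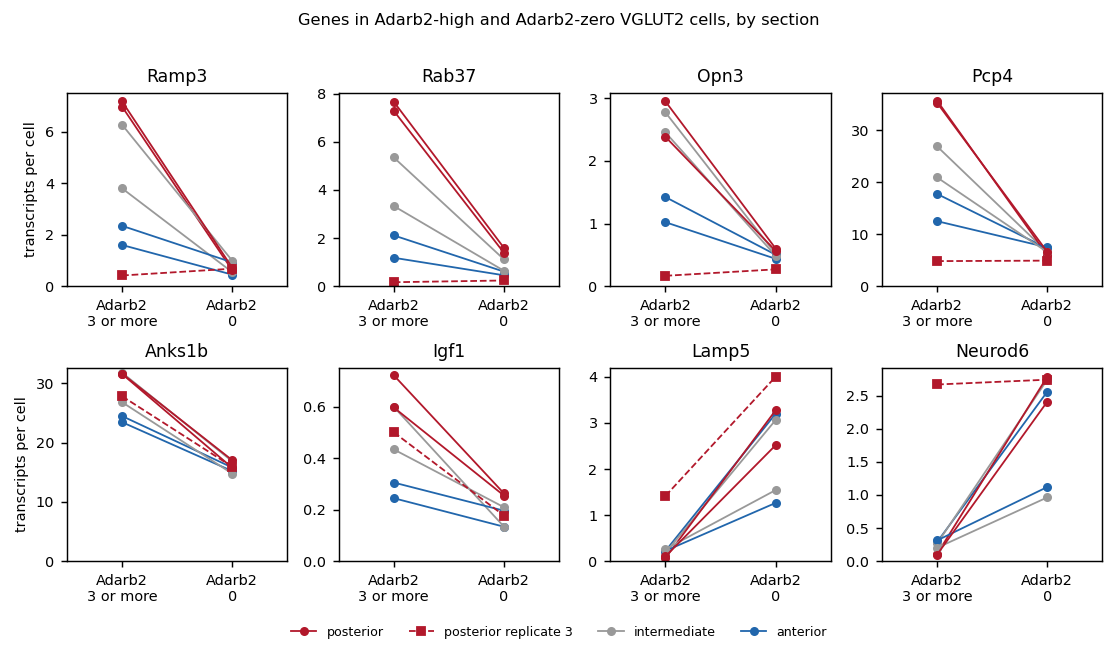
Transcripts per cell of 8 genes in Adarb2-high (3 or more transcripts, left) and Adarb2-zero (0, right) VGLUT2 cells, with 1 line per section and posterior replicate 3 dashed. Ramp3 lies between 1.60 and 7.17 in Adarb2-high cells of 6 sections, and at 0.417 in posterior replicate 3.

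Of the thalamic list, 15 genes were tested in this comparison, 3 were higher (Calb1, Necab1 and Ramp3), 2 were lower (C1ql2 and Bhlhe22) and 10 did not pass, beside 25.2% of all genes called, with a median log2 difference of 0.08 beside -0.12 over all genes tested. Of 14 genes typical of interneurons from the caudal eminence, 1 was higher, 3 were lower and 10 did not pass (median -0.46). Of 10 genes typical of those from the medial eminence, 0 were higher and 1 was lower with edgeR (median 0.08). The interneuron lists include Vip, Lamp5, Sst and Pvalb, which the rule that chose Adarb2 used, so their counts are a description.

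In the Vip class, Adarb2 rose most with Prox1, which also marks interneurons of the caudal eminence. Prox1-positive Vip cells averaged 7.98 ± 0.729 Adarb2 transcripts per cell (6.78 to 8.74 over 7 sections), against 1.73 ± 0.221 (1.39 to 2.05) in Prox1-negative cells. The ranges did not overlap, and on the log2 scale cells differed by 2.36 ± 0.13 (SE, edgeR adjusted p = 1.28e-07, 34.9% of genes called). Cells positive for Crh, the corticotropin-releasing hormone gene, averaged 6.83 ± 0.866, against 4.77 ± 0.753 in Crh-negative cells (log2 difference 0.65 ± 0.07, edgeR adjusted p = 1.07e-05, 44.2% called). Cells positive for Penk, the enkephalin precursor gene, averaged 6.31 ± 0.882, against 4.82 ± 0.492 (0.36 ± 0.08, 0.0034 and 32.6%). Calb2 did not pass, at 6.09 ± 0.895 in positive and 5.27 ± 0.674 in negative cells (0.15 ± 0.07, 0.106 and 42.2%), but passed at a threshold of 5 (0.37, edgeR adjusted p = 0.0028), without anterior replicate 2 (0.03) or without posterior replicate 3 (0.019). Lamp5-positive Vip cells averaged 5.05 ± 0.520, against 5.61 ± 1.17 in Lamp5-negative ones, and were higher per cell in 2 of 7 sections. Relative to all transcripts, Adarb2 was lower in Lamp5-positive cells in every section, at 7.94 per 1000 against 13.8 (-0.57 ± 0.09, with 63.9% of genes called). The rule that chose Adarb2 used its level by Lamp5, so this split is a description. Among Vip cells that met no other rule Prox1 alone of the 5 passed, and the Calb2 difference turned to -0.43. Lamp5 stays below 5 in these cells.

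In the Lamp5 class, Adarb2 rose with all 5 genes tested, by 1.77-fold for Id2 and by 6.93-fold to 11.6-fold for Nr2f2, Sncg, Cplx3 and Prox1. Lamp5 cells positive for Cplx3, the complexin 3 gene of neurogliaform cells, averaged 6.32 ± 0.498 Adarb2 transcripts per cell (5.72 to 6.98), against 0.645 ± 0.0699 (0.573 to 0.762) in Cplx3-negative cells. That is a log2 difference of 3.43 ± 0.06 (SE, edgeR adjusted p = 7.58e-22), and the fit called 77.5% of genes. Prox1-positive cells averaged 5.06 ± 0.568, against 0.453 ± 0.0468 (3.54 ± 0.08, 75.4% called). Cells positive for the synuclein gene Sncg averaged 11.3 ± 2.71, the highest of the splits, against 1.04 ± 0.0983 (3.30 ± 0.14, 40.6% called), from 134 positive cells in 6 sections. The nuclear receptor gene Nr2f2 gave 3.82 ± 0.612 against 0.475 ± 0.0583 (2.79 ± 0.11, 73.4%). Id2, an inhibitor of basic helix-loop-helix factors, gave 1.35 ± 0.0931 against 0.477 ± 0.0929 (0.82 ± 0.07, 81.9%). Positive cells were higher in every section used.

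The mean of the Sst class lay above that of every glial and vascular group per cell, but within their range per 1000 transcripts, and its splits differed on both scales. Calb2-positive Sst cells averaged 0.648 ± 0.150 Adarb2 transcripts per cell, against 0.187 ± 0.0390 in Calb2-negative cells (log2 difference 1.77 ± 0.19, SE, edgeR adjusted p = 8.19e-06, 51.4% of genes called). Per 1000 transcripts these were 1.04 and 0.305, the first above and the second below the means of all 5 glial and vascular groups. Positive cells were higher for Meis2, a homeobox gene (1.09 ± 0.28, 41.9% called), and for Calb1 (0.62 ± 0.19, 65.6%), the second lost among cells that met no other rule (log2 difference -0.0010) or at a threshold of 5 (edgeR adjusted p = 0.0974). Pvalb-positive Sst cells averaged 0.142 ± 0.0282, against 0.477 ± 0.112 in Pvalb-negative cells (-1.78 ± 0.18, 67.5%). The rule that chose Adarb2 used its level by Pvalb, so this split is a description. Cells positive for Cort, the cortistatin gene expressed by Sst interneurons, averaged 0.193 ± 0.0287, against 0.341 ± 0.0736 (-0.96 ± 0.18, 66.4%).

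In the Pvalb class, Tacr1, which encodes the substance P receptor, marked cells with high Adarb2. The 432 Tacr1-positive Pvalb cells averaged 7.28 ± 1.31 Adarb2 transcripts per cell (4.93 to 8.58), against 0.632 ± 0.0444 (0.567 to 0.711) in Tacr1-negative cells (log2 difference 3.19 ± 0.11, SE, edgeR adjusted p = 2.22e-09, 75.3% of genes called). The same gene gave -0.66 ± 0.32 in the VGLUT2 class, where it did not pass, and the difference between the classes was not tested. Adarb2 was lower in Pvalb cells positive for Sst, at 0.138 ± 0.0299 against 1.07 ± 0.0838 (-2.68 ± 0.12, 83.8% called), for Calb1 (-1.27 ± 0.09, 89.2%), for Meis2 (-0.55 ± 0.10, 74.6%) and for Pthlh, a parathyroid hormone-like hormone gene (-0.37 ± 0.12, 80.7%). Over the 4 GABA classes 19 of 20 splits passed, 12 with Adarb2 higher and 7 with it lower in the positive cells. This count includes the splits by Lamp5 in Vip cells, Pvalb in Sst cells and Sst in Pvalb cells. The rule that chose Adarb2 used these genes, so those splits are a description.

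**Figure D4:**
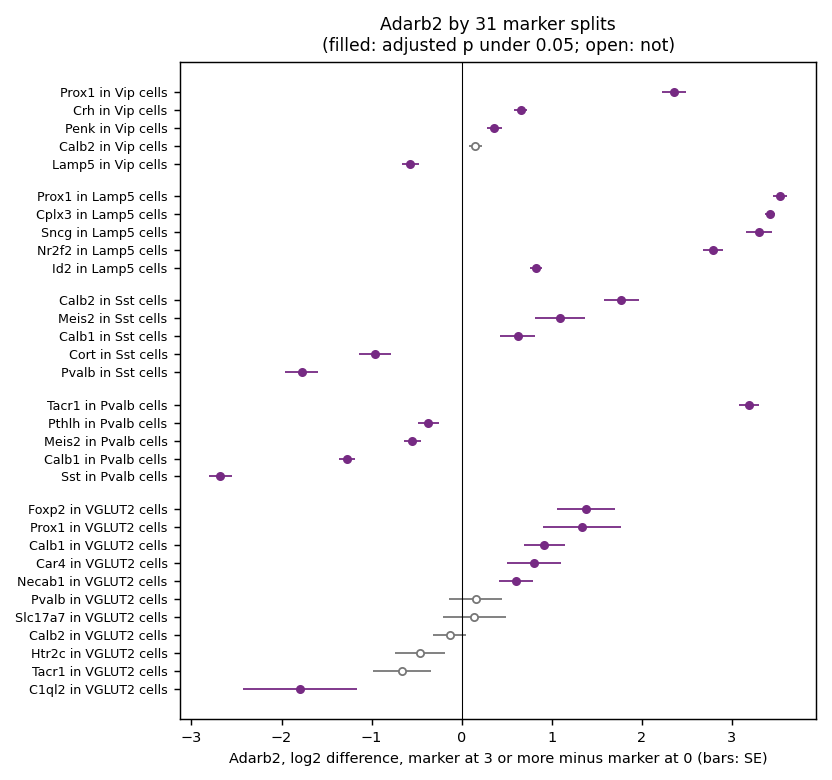
Log2 difference in Adarb2 between marker-positive and marker-negative cells for the 31 splits, with bars of 1 SE, grouped by class. Values run from -2.68 (Sst in the Pvalb class) to 3.54 (Prox1 in the Lamp5 class).

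Adarb2-high Vip cells (1851) were set against Adarb2-zero Vip cells (586). Of 278 genes 148 passed (53.2%), 83 higher and 65 lower, and the share of higher genes was 56.1%, or 25.9% with library-size scaling. Prox1 had 6.45 ± 0.540 transcripts per cell in Adarb2-high and 1.27 ± 0.165 in Adarb2-zero cells, with a log2 difference of 2.55 ± 0.10 (SE, edgeR adjusted p = 8.21e-10). Igf1 had 5.13 ± 0.269 against 0.976 ± 0.166 (2.60 ± 0.12), and Slc44a5, a choline transporter-like gene, 2.39 ± 0.256 against 0.423 ± 0.119 (2.75 ± 0.12). Chat, the acetylcholine-synthesising enzyme gene that some Vip interneurons express, gave 2.70 ± 0.25, the phosphodiesterase gene Pde11a 2.36 ± 0.18 and the semaphorin gene Sema5b 2.34 ± 0.13. The 4 largest decreases that held in every section were Zfp366, Sox17, Emcn and Cd93, with log2 differences of -1.46 to -1.20, and the last 3 are expressed in blood vessels. All 8 endothelial markers were lower, with a summed 2.16 to 2.95 transcripts per cell in Adarb2-high against 4.36 to 7.66 in Adarb2-zero cells. Gad1 and Gad2 were higher, but they define the class, so their values are a description. The part of neighbouring cells in these differences was not tested. Among the 712 Vip cells that met no other rule 18 genes passed. Chat (log2 difference 0.62), Pde11a (1.39) and Sema5b (0.89) did not. Fewer cells enter there, so a lost call does not show that a difference is absent.

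Adarb2-high Lamp5 cells (2868, against 17035 Adarb2-zero cells) differed in 231 of 293 genes (78.8%), with 112 higher and 119 lower. Pde11a had 3.49 ± 0.354 transcripts per cell in Adarb2-high and 0.155 ± 0.0249 in Adarb2-zero cells (log2 difference 4.63 ± 0.11, SE, edgeR adjusted p = 1.01e-14). Igf1 gave 4.29 ± 0.08, Vip 3.93 ± 0.09, Cplx3 3.85 ± 0.08, Prox1 3.35 ± 0.10 and Nr2f2 2.58 ± 0.12. Pdyn, the dynorphin precursor gene, fell by 2.12 on the log2 scale and Ppp1r1b, which encodes DARPP-32 of striatal projection neurons, by 1.81. Pvalb fell by 1.91 and Fezf2 by 1.72, and these 2 calls were lost among Lamp5 cells that met no other rule. That limit leaves out every cell with Pvalb at 5 or more, so it cannot test Pvalb. The rule that chose Adarb2 used Vip and Pvalb, so their values here are a description. Of the striatal projection markers 4 of 5 were lower and 1 was higher, and of the cortical excitatory markers 6 of 8 were lower and 1 was higher. All 8 endothelial markers were lower, with a summed 2.09 to 4.29 transcripts per cell in Adarb2-high against 3.73 to 4.74 in Adarb2-zero cells. All 5 fibroblast markers (0.517 to 0.992 against 0.368 to 0.555) and both oligodendrocyte precursor markers (1.15 to 2.34 against 0.607 to 0.900) were higher. The part of these cells in the differences was not tested. Gad1 and Gad2 were also higher, but they define the class, so their values are a description.

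Few Sst cells were Adarb2-high. In this class 97 cells were Adarb2-high, against 2973 Adarb2-zero cells, and 103 of 285 genes passed (36.1%), 50 higher and 53 lower. Htr2c had 8.59 ± 2.65 transcripts per cell in Adarb2-high and 1.06 ± 0.215 in Adarb2-zero cells (log2 difference 2.74 ± 0.17, SE, edgeR adjusted p = 3.00e-08), and Pvalb had 1.37 ± 1.06 against 18.7 ± 4.29 (-4.15 ± 0.28). Chat, Sncg, Pde11a, Foxp2 and Nrp2 were also higher (1.70 to 2.69) and Ramp3 lower (-4.47 ± 0.47), while Pln and Sla had 1 and 2 transcripts in the 97 cells, too few for a fold. Among Sst cells that met no other rule 19 genes passed, and Chat, Sncg, Pde11a, Foxp2 and Pvalb did not.

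In the Pvalb class 3206 Adarb2-high cells, against 27151 Adarb2-zero cells, differed in 248 of 296 genes (83.8%), 121 higher and 127 lower. Npy2r, a neuropeptide Y receptor gene, had 0.940 ± 0.185 transcripts per cell in Adarb2-high and 0.0565 ± 0.0255 in Adarb2-zero cells (log2 difference 3.98 ± 0.23, SE, edgeR adjusted p = 1.95e-08). Chat gave 3.08 ± 0.14, Tacr1 3.01 ± 0.08, the secreted phosphoprotein gene Spp1 2.85 ± 0.10, Vip 2.82 ± 0.14 and the sulfotransferase gene Ndst4 2.44 ± 0.12. Sst fell by 3.67, Ramp3 by 3.50, Fezf2 by 2.60 and Neurod6 by 2.58 on the log2 scale. The call on Vip was lost among Pvalb cells that met no other rule (log2 difference 0.0085). That limit leaves out every Pvalb cell with Vip or Sst at 5 or more, so it cannot test these genes. The rule that chose Adarb2 used Vip and Sst, so their values here are a description. All 8 endothelial markers were lower relative to all transcripts. Their sums per cell overlapped, at 4.71 to 6.10 in Adarb2-high against 5.03 to 5.96 in Adarb2-zero cells. All 6 astrocyte and all 6 microglial markers were higher, with summed astrocyte markers at 22.7 to 28.5 per cell in Adarb2-high against 12.4 to 14.7 in Adarb2-zero cells, and their part in the result was not tested.

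In the VGLUT1 class 5951 Adarb2-high cells, against 116139 Adarb2-zero cells, differed in 190 of 296 genes (64.2%), 94 higher and 96 lower. Vip had 5.36 ± 1.24 transcripts per cell in Adarb2-high and 0.236 ± 0.0454 in Adarb2-zero cells (log2 difference 4.31 ± 0.15, SE). The rule that chose Adarb2 used Vip, so this value is a description. Pde11a gave 4.46 ± 0.16 (SE, edgeR adjusted p = 3.59e-08), Igf1 3.92 ± 0.15, Crh 3.55 ± 0.13, Calb2 3.12 ± 0.13 and Chat 3.11 ± 0.21. The myosin light chain gene Myl4 fell by 1.92 on the log2 scale, Trbc2 by 1.87, Arhgap25 by 1.66 and Fezf2 by 1.64. Both GABA markers were higher, with a summed 21.0 to 35.3 per cell in Adarb2-high against 4.79 to 5.70 in Adarb2-zero cells. All 8 endothelial and all 4 mural markers were lower relative to all transcripts. Their sums per cell overlapped, at 3.46 to 5.32 in Adarb2-high against 4.86 to 6.54 in Adarb2-zero cells (endothelial) and 0.288 to 0.509 against 0.453 to 0.639 (mural). Among VGLUT1 cells that met no other rule, 125 genes passed, and Pde11a, Igf1, Crh and Chat did not, with the Chat difference at -0.15.

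The lists of interneuron and thalamic genes are given as counts beside the share of all genes called, which was 78.8% in Lamp5, 53.2% in Vip, 64.2% in VGLUT1, 83.8% in Pvalb and 36.1% in Sst cells. Of the genes typical of the caudal eminence, 11 of 13 tested were higher and 1 was lower in Adarb2-high Lamp5 cells (median log2 difference 2.15, beside 0.02 over all genes tested), 9 of 13 were higher and 2 were lower in Vip cells (1.83 beside 0.01) and 11 of 14 were higher and 2 were lower in VGLUT1 cells (1.94 beside 0.02). In Pvalb cells 9 of 14 were higher and 5 were lower (0.89 beside -0.02), and in Sst cells 4 were higher, 1 was lower and 9 did not pass (0.16 beside -0.05). Several of these counts lie near the share of all genes called, as where 12 of 13 were called in Lamp5 and all 14 in Pvalb cells. Of the genes typical of the medial eminence, 2 of 9 were higher and 5 were lower in Pvalb cells (median -0.30), 2 of 9 and 3 in Sst cells (-0.15), 3 of 9 and 3 in Vip cells (-0.17), 4 of 10 and 4 in Lamp5 cells (0.03), and 3 of 10 and 4 in VGLUT1 cells (-0.02). Of the thalamic list, 7 of 15 were higher and 1 was lower in Sst cells (0.52), 8 of 16 and 8 in Pvalb cells (0.16), 6 of 14 and 3 in Vip cells (0.00392), 9 of 16 and 5 in Lamp5 cells (0.16) and 8 of 16 and 2 in VGLUT1 cells (0.67). The rule that chose Adarb2 used Vip and Lamp5 of the caudal list, Sst and Pvalb of the medial list and Slc17a6 of the thalamic list. Only the genes that define a class were left out of its counts, so the counts and medians are a description. Adarb2 was the only one of the 3 RNA editing genes looked for that the panel measured.

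**Figure D5:**
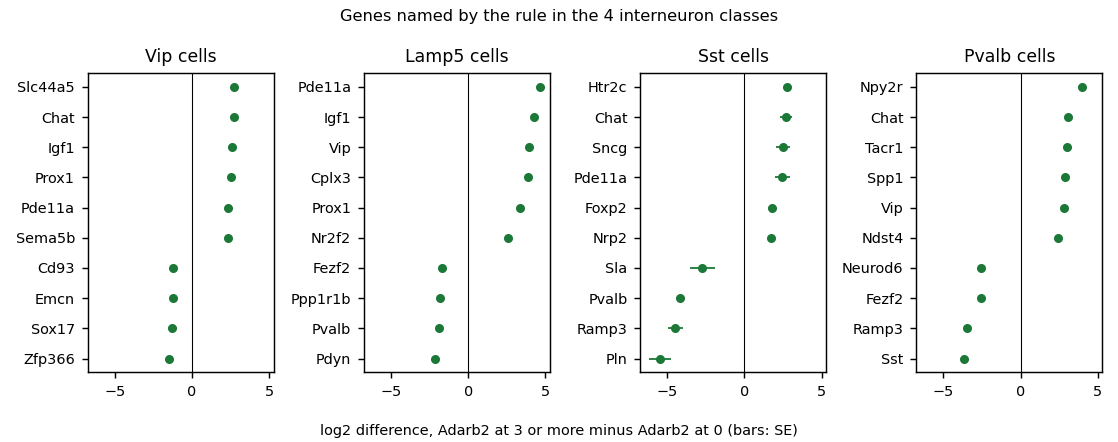
Log2 differences between Adarb2-high and Adarb2-zero cells of the genes named by the rule in the Vip, Lamp5, Sst and Pvalb classes, with bars of 1 SE. The highest value is Pde11a in the Lamp5 class at 4.63. Vip, Sst and Pvalb were used by the rule that chose Adarb2, so their values are a description. Pln and Sla in the Sst class rest on 1 and 2 transcripts in Adarb2-high cells, and their fitted values are no bounds.

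The genes whose level most resembled that of Adarb2 over the 42 combinations of 6 classes and 7 sections were Pthlh (Spearman rho 0.71), the cadherin gene Cdh20 (0.69), Chat (0.64), the sorting receptor gene Sorcs3 (0.60) and Parm1 (0.57), on transcripts per 1000. The least alike were Pcsk5 (-0.69), Igsf21 (-0.63) and Tox (-0.63). The points share sections, depth and cells, so these values are a description. Pthlh had 1.75 transcripts per 1000 in the Vip class, against 0.0761 to 0.592 in the other 5, and within the Pvalb class Pthlh-positive cells had less Adarb2, as given above.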

How the data were processed

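The authors deposited raw counts (whole transcripts of each gene in each cell outline) for 7 sections, and a cell table that names the section. Summed counts matched the totals in that table for 100% of cells. The submitters' processing notes name Seurat, and its version, cell outlining and filters were not given in the sources used here. Of 297 symbols 296 matched the RefSeq gene table. Neither cell positions nor a cell annotation was used. A measured gene is left out of the text here, while counts of genes include it.

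Cells with at least 10 transcripts (382707 of 384076) were classed by the rule. Counts were summed per section and class, or per section and side of a split (3 or more transcripts against 0, with at least 10 cells on both sides), and edgeR 4.0.16 was run under R 4.3.3 with limma 3.58.1, using filterByExpr, TMM, the quasi-likelihood F test over all genes and Benjamini-Hochberg adjustment at 0.05. Splits and the interaction had the section as a block. The SE is the absolute log2 difference divided by the square root of F. The scripts were tested on simulated data. The gene, its classes and all lists were chosen with earlier results of these data known. Genes were named where they passed and moved one way in every section used, taking up to 6 higher and 4 lower (10 and 6 in VGLUT2 cells), plus list members that passed. Alternatives were DESeq2 1.42.0, library-size scaling, no low-count filter, at least 100 transcripts per cell, a split threshold of 5, cells thinned to 200 transcripts, doubled class thresholds, slide as a term or slide 1 alone, a replicate block, no section block, each section left out and, added after seeing the data, cells that met 1 class rule only (with Slc17a7 at 2 or below for VGLUT2, and Gad1 plus Gad2 and Slc17a6 at 2 or below for VGLUT1) or shared cells left out. Thinned cells were not used for the marker splits of the GABA classes or for the position tests. Python 3.11.15, numpy 2.4.6, pandas 2.3.3, scipy 1.17.1 and matplotlib 3.10.9 were used.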

Additional observations from a re-analysis of the deposited data

How the results depend on the processing

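Levels moved by more than the spread between sections with doubled class thresholds, to 7.42 (Vip), 2.26 (Lamp5), 0.358 (Sst) and 1.02 (Pvalb) transcripts per cell, and among cells that met 1 class rule only, to 4.61 (Vip), 0.817 (Lamp5), 0.595 (Sst), 1.29 (Pvalb) and 0.157 (VGLUT1). The cause was not tested.

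Position differences near 0 changed sign. That of the Vip class was 0.0014 with DESeq2, 0.022 with library-size scaling, 0.046 on slide 1 alone and 0.028 with slide as a term, and -0.091 to 0.079 with each section left out. That of the Sst class was 0.0011 with library-size scaling, 0.0049 with no low-count filter, 0.26 among cells that met 1 class rule only, 0.026 on slide 1 alone, 0.026 with slide as a term, and -0.19 to 0.24 with each section left out. The interaction ran from -0.15 to 1.35 with each section left out.

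Same-numbered sections correlated between -0.0512 and 0.860 over 3 pairs in each class, above 0.1 for every pair in all classes but Pvalb. The labels do not say what a number marks. With a replicate block the position difference was 0.46 in the VGLUT1 class (edgeR adjusted p = 0.0458), which passed, 1.89 in the VGLUT2 class (0.0658) and 0.23 in the Sst class (0.5).

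Among VGLUT2 splits, the Car4 difference no longer passed with library-size scaling (0.61), without the section block (1.22) or at a threshold of 5 (0.79), and ran from 0.61 to 1.02 with each section left out. C1ql2 ran from -2.07 to -1.34, Necab1 from 0.51 to 0.78 and Tacr1 from -0.95 to -0.42 over the same settings, and Tacr1 passed without posterior replicate 3 (edgeR adjusted p = 0.00923) and at a threshold of 5 (-1.06). Without the section block Calb1 (1.21) and Necab1 (0.62) did not pass. Among cells that met 1 class rule only, C1ql2 (-0.32), Calb1 (0.20) and Prox1 (0.46) did not pass, and Calb2 (-0.59) did. Foxp2 (0.70), Car4 (0.80) and Necab1 (0.42) still passed in these cells. Prox1 (0.71) did not pass in cells thinned to 200 transcripts. Pvalb turned to -0.030 with library-size scaling and -0.044 when thinned, with a range of -0.091 to 0.30 over sections left out. Slc17a7 turned to -0.12 at a threshold of 5 and -0.59 when thinned, with a range of -0.12 to 0.38.

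Among GABA splits, Calb2 in Vip cells was 0.37 and passed at a threshold of 5, was -0.43 among cells that met 1 class rule only, and ran from 0.11 to 0.23 with each section left out, passing without anterior replicate 2 (edgeR adjusted p = 0.03) or posterior replicate 3 (0.019). Among cells that met 1 class rule only, Crh (0.34), Penk (0.31) and Lamp5 (-0.43) in Vip cells did not pass, and Calb1 in Sst cells was -0.0010. That last split was 0.39 at a threshold of 5 and did not pass. In the GABA classes the limit to 1 class rule holds the other class markers below 5, so it cannot test differences in those markers.

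The count of genes that differed with Adarb2 in VGLUT2 cells was 128 with DESeq2, 136 at a threshold of 5, 132 among cells that met 1 class rule only, and 29 to 140 with each section left out. Among cells that met 1 class rule only it was 18 in Vip, 19 in Sst and 125 in VGLUT1 cells. Those classes then held 712, 968 and 65856 cells. Of 885 values of named genes under an alternative, 851 kept direction and call, 33 lost the call (17 among cells that met 1 class rule only) and Chat in VGLUT1 cells turned to -0.15. Library-size scaling moved the median over all genes by more than 0.1 in 26 of 44 fits, by -0.48 to 0.27.

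No value came from Sncg in Lamp5 cells at a threshold of 5, from Slc17a7 in VGLUT2 and Pvalb in Sst cells among cells that met 1 class rule only, or from the Adarb2 comparison in Sst cells at a threshold of 5 or thinned. DESeq2 gave no adjusted p for Adarb2 by position in Sst cells. The marker splits of the GABA classes were not run on thinned cells, so their dependence on depth was not tested that way. Depth limits the low classes, where Adarb2 lies near the level of glial cells, and 7 sections with 2 anterior ones limit the position tests.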

Other observations

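Cells with 5 or more Chat transcripts, a sign of cholinergic neurons, held more Adarb2 than any class of the rule but Vip. The 2163 such cells averaged 2.34 ± 0.208 Adarb2 transcripts per cell over 7 sections (SD), and the share of them with a transcript averaged 59.3%. The 1895 of them with no Vip transcript averaged 1.78 ± 0.238. The 132 with Vip at 5 or more averaged 9.63 ± 1.5, and the share of them with Adarb2 averaged 99.4% over sections. Cells with 5 or more transcripts of Th, the tyrosine hydroxylase gene, numbered 352 and averaged 1.38 ± 0.514.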
